A study of Mus musculus with 3 samples.

Results

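The photoreceptor ribbon synapse and its release machinery were followed through 33 genes, chosen by name for their roles in the synaptic ribbon, vesicle release and adhesion at the terminal, out of 21368 genes named on the arrays. They were read by 49 probes, and each gene had at least 1. This set and the wider lists below were chosen with earlier results of these data known. A share above that of all genes is therefore a description and not independent evidence. Retinas of mice at postnatal day 12 were profiled on 1-colour arrays, on which total RNA is read through the dye Cy3, with 1 array labelled Otx2 KI, 1 labelled Crx KO and 1 wild-type. KI is the usual short form for knock-in and KO for knockout. The labels give neither the locus of the knock-in, nor the deleted part of Crx, nor the strain, nor how many mice were pooled. Because each genotype is 1 array, no difference below has a replicate check and none was tested.

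Rods and cones signal light by slowing a steady release of glutamate. Their terminals hold a synaptic ribbon, a plate that tethers vesicles beside L-type calcium channels, so that release can be kept up without pause. Bipolar cells also use ribbons, whereas amacrine cells use conventional synapses, and several of the genes below are shared by all of these neurons. Crx and Otx2 are related homeodomain factors that bind DNA with the core TAATCC, and Crx activates many rod and cone genes.

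The values are scaled signals, that is, Cy3 intensities after scaling each array to its 75th percentile, on the scale of the wild-type array. The share of spots well above background was 63.5% in Otx2 KI, 67.1% in Crx KO and 66.6% in wild-type. Crx itself read 1062 in Otx2 KI, 7177 in Crx KO and 9790 in wild-type, and Otx2 read 63860, 62981 and 40886 on the same arrays. The position of the Crx probe with respect to either altered allele was not examined, so this signal is no check of the labels, and Otx2 KI and Crx KO below mean the arrays labelled so. All 8 rod and all 8 cone markers were well above background in wild-type. The 8 rod markers summed to 200558 in Otx2 KI, 203410 in Crx KO and 560255 in wild-type, with all 8 below wild-type in both mutants, 6 of them at least 2-fold lower in Otx2 KI and 7 in Crx KO. Cone markers summed to 157472, 152759 and 84779 in the same order, a sum led by the transducin subunit Gngt2, which was higher in both mutants. In each mutant 3 of the 7 cone markers measured were at least 2-fold lower. Only 1 was at least 2-fold higher, Gngt2, by 4.38-fold in Otx2 KI and 4.11-fold in Crx KO. In sign the 7 were split, with 4 below wild-type and 3 above it in each mutant (Gngt2, Gnb3 and Cngb3). The cone opsin Opn1sw was not well above background in either mutant. Bipolar markers summed to 116853, 126697 and 133337 in Otx2 KI, Crx KO and wild-type, and amacrine markers to 98728, 94158 and 90122. In Otx2 KI 0 of the 10 bipolar and 0 of the 8 amacrine markers were 2-fold or more from wild-type, and in Crx KO 1 bipolar marker was (Car8, 256 against 912 in wild-type). Pigment epithelium markers summed to 10600, 6893 and 21143, with 2 of 6 measured at least 2-fold lower in Otx2 KI and 4 of 6 in Crx KO. Lens markers summed to 861, 253 and 358, with 4 of 5 measured at least 2-fold higher in Otx2 KI and 0 of 5 in Crx KO. In whole retina, fewer cells of a type and less RNA per cell cannot be told apart, and the part of any of these shifts in the synaptic differences was not tested.

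The DNA just before the start of 3 genes is shown because they span the responses described below: Slc17a7 and Lrit1 were lower in both mutants and Cplx3 was higher. Each is the 250 bases before the annotated start, from RefSeq on build GRCm38.p6, 5′ to 3′ on the gene's strand. Slc17a7 lies at chr7:45163671-45163920 on the + strand, Lrit1 at chr14:37054580-37054829 on the + strand and Cplx3 at chr9:57606282-57606531 on the - strand. Capitals mark TAATCC or its reverse complement GGATTA.
Slc17a7: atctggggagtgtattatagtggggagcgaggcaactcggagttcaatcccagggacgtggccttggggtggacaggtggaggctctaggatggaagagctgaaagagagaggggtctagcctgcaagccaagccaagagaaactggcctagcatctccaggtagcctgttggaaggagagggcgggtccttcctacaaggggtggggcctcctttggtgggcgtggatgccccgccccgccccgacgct
Lrit1: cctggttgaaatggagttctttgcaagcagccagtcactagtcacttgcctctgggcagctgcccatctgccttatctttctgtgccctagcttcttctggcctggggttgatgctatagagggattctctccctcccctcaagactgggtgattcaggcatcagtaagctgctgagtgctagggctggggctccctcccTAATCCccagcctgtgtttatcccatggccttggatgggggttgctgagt
Cplx3: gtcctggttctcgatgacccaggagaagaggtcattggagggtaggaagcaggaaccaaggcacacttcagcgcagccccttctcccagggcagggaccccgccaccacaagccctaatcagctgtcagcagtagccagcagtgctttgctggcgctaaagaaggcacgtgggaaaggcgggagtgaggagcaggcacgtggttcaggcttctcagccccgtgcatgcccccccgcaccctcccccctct
The Lrit1 stretch holds 1 match, whose first base lies 50 bases before the start, and the other 2 stretches hold 0. Of the 33 genes 27 had such a stretch, in 37 windows. None was at hand for Cacna2d4, Cabp4, Rims2, Snap25, Vamp2 and Cplx4, so these genes were not searched. The motif was found in 5 of the 37 windows (13.5%), before Ctbp2, Lrit1, Syp and, at 2 starts, Sv2b, against 6.25% of 32851 windows over all genes. These are letter matches in a short window and describe no binding.

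Of the 33 genes, 32 were well above background on all 3 arrays. The remaining one, Elfn1, read 2.99 in Otx2 KI, 2.36 in Crx KO and 10.8 in wild-type, in each case not well above background, so it has no measured difference. In Otx2 KI, 3 of the 32 (9.38%) were lower by 2-fold or more (Cabp4, Cplx4 and Slc17a7), where 2.53% of all 15809 measured genes were, and 1 (3.12%) was higher (Cplx2), where 1.35% of all genes were. Counted either way these are 4 of 32, beside 3.88% of all genes. With the arrays scaled on their median spot this split was 3 lower and 2 higher. In Crx KO, 2 (6.25%) were lower by 2-fold or more (Cabp4 and Cplx4), against 3.43% of 16050 genes, and 2 (6.25%) were higher (Cplx3 and Cplx2), against 1.95%. Either way this is again 4 of 32, beside 5.38% of all genes. Centred on inner retina markers, this split was 3 lower and 0 higher. The 2 comparisons use the same wild-type array, so a value particular to that array enters both. Cabp4, Cplx4, Slc17a7 and Cplx3 were read by 1 probe each, so no second probe checks them. For the 9 members with several probes, the median range between probes was log2 0.36 in Otx2 KI and 0.53 in Crx KO. Over all genes with several probes it was 0.12 and 0.15.

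**Figure D1:**
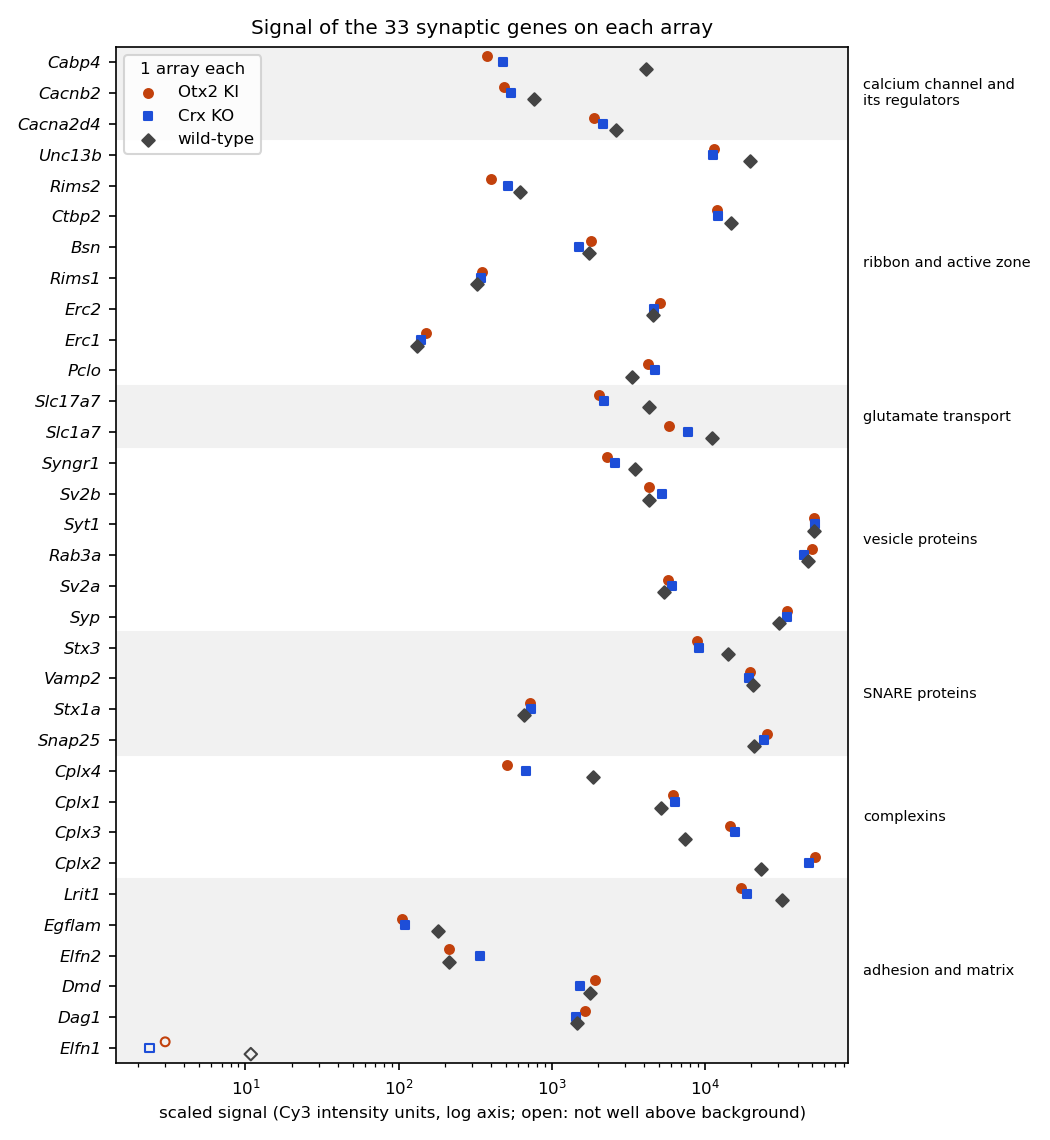
Scaled signal (log axis) of each of the 33 genes on the Otx2 KI, Crx KO and wild-type arrays, 1 array each, grouped by role; open symbols are not well above background. The mutant points lie left of wild-type for Cabp4, Cplx4 and Slc17a7 and right of it for Cplx2 and Cplx3, and the 3 points of most vesicle genes lie close together.

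A smaller difference was common in this set, which was chosen with earlier results of these data known. With 1.5-fold (log2 0.58) as the size, 11 of the 32 (34.4%) were lower in Otx2 KI, where 6.35% of all genes were, and 2 (6.25%) were higher, where 3.66% were. The 11 were Cabp4, Cacnb2, Unc13b, Rims2, Slc17a7, Slc1a7, Syngr1, Stx3, Cplx4, Lrit1 and Egflam. In Crx KO 7 (21.9%) were lower, where 8.25% of all genes were, and 3 (9.38%) were higher, where 5.02% were. The 7 were Cabp4, Unc13b, Slc17a7, Stx3, Cplx4, Lrit1 and Egflam, and the higher ones were Cplx2, Cplx3 and Elfn2. Either way the sums are 13 in Otx2 KI, beside 10% of all genes, and 10 in Crx KO, beside 13.3%. The median log2 difference did not show this. It was 0.010 in Otx2 KI (0.030 over all genes) and -0.092 in Crx KO (-0.0074 over all genes), because 17 and 14 of the 32 lay above 0. The scanner software's error model put an error of 0.14 on the log2 difference of Dmd and 0.20 to 0.21 on the others. It is an error of reading the array and holds nothing of how mice vary. In Otx2 KI 14 of the 32 lay within 1 such error of 0, where 61.1% of all genes did, and in Crx KO 10 did, where 56.2% of all genes did.

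**Figure D2:**
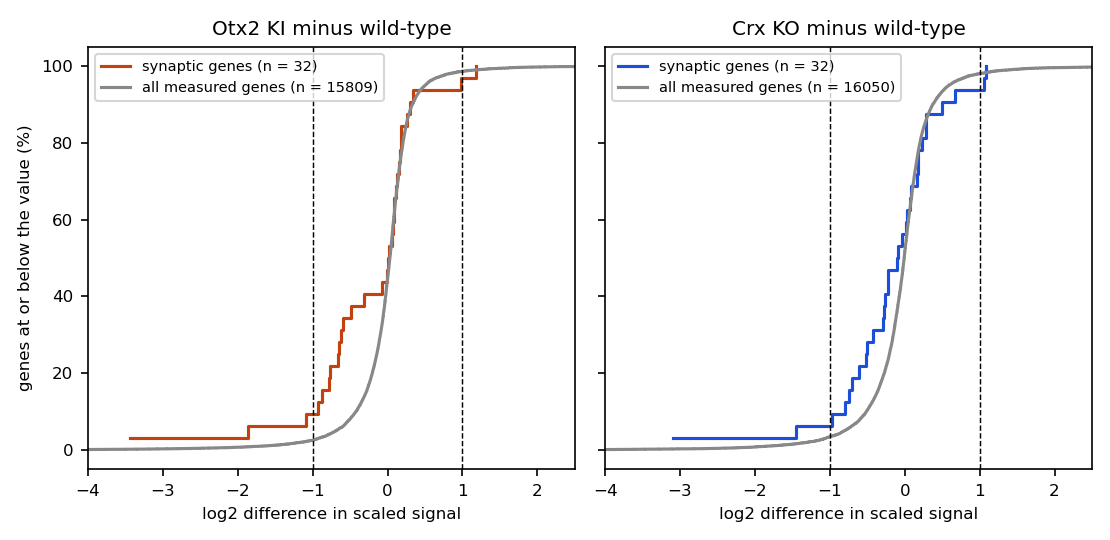
Percent of genes at or below each log2 difference, for the 32 measured synaptic genes (coloured) and all measured genes (grey), in Otx2 KI minus wild-type (left) and Crx KO minus wild-type (right); dashed lines mark 2-fold. At 1.5-fold lower the coloured curves have reached 34.4% and 21.9%, where the grey curves have reached 6.35% and 8.25%.

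The presynaptic calcium channel regulators held the widest difference. Cabp4 encodes a calcium-binding protein that tunes the L-type channel of the photoreceptor terminal, and its loss in mice impairs transmission to bipolar cells. It read 377 in Otx2 KI, 477 in Crx KO and 4086 in wild-type. Both mutants were far below wild-type, at 9.24% of it in Otx2 KI (log2 -3.44, 10.8-fold lower) and 11.7% in Crx KO (log2 -3.10, 8.57-fold lower). Cacnb2, the cytoplasmic beta subunit of the channel, read 490, 543 and 767 in Otx2 KI, Crx KO and wild-type, which is log2 -0.65 and -0.50, and its other, dimmer probe gave -0.48 and -0.56. Cacna2d4, the extracellular auxiliary subunit of the same channel, read 1877, 2139 and 2621, with log2 differences of -0.48 and -0.29. All 3 regulators were thus lower than wild-type in both mutants, but only Cabp4 passed 1.5-fold in both, and Cacna2d4 passed it in neither.

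Of the 2 glutamate transporters in the set, Slc17a7 passed 2-fold lower in Otx2 KI and 1.5-fold in Crx KO, and Slc1a7 passed 1.5-fold in Otx2 KI and was within it in Crx KO. Slc17a7 encodes VGLUT1, which loads glutamate into the vesicles of photoreceptors and bipolar cells. It read 2028 in Otx2 KI, 2199 in Crx KO and 4312 in wild-type, so the mutants held 47.0% and 51.0% of the wild-type signal (log2 -1.09 and -0.97). Slc1a7, the glutamate transporter EAAT5 of ribbon terminals, takes up glutamate and carries a chloride current. It read 5766 in Otx2 KI, 7668 in Crx KO and 10988 in wild-type, 52.5% and 69.8% of wild-type (log2 -0.93 and -0.52). The mutants were close to each other for Slc17a7 and farther apart for Slc1a7 (log2 -0.41, Otx2 KI minus Crx KO).

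The ribbon and its active zone were divided. Unc13b, a Munc13 priming protein that makes vesicles ready for fusion, read 11436 in Otx2 KI, 11247 in Crx KO and 19634 in wild-type, at log2 -0.78 and -0.80. Rims2, a scaffold that holds calcium channels near the ribbon, read 403, 517 and 621 in the same order, at log2 -0.62 and -0.26. Ctbp2, whose locus also makes RIBEYE, the main protein of the ribbon, read 11916, 12201 and 14799, at log2 -0.31 and -0.28. These 3 genes were below wild-type in both mutants, Rims2 past 1.5-fold in Otx2 KI and within it in Crx KO, and Ctbp2 within it in each. Which Ctbp2 transcript the probe reads was not examined, so its value does not stand for RIBEYE alone.

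The other 5 active zone genes stayed within 1.5-fold. Bsn encodes bassoon, which anchors the ribbon to the membrane, and read 1810 in Otx2 KI, 1491 in Crx KO and 1741 in wild-type (log2 0.06 and -0.22). Pclo encodes piccolo, a relative of bassoon, and its brightest probe read 4207, 4683 and 3326 (log2 0.34 and 0.49). The other 3 Pclo probes lay between -0.15 and -0.01 in Otx2 KI and between -0.20 and 0.29 in Crx KO, so the sign for Pclo depended on the probe. Rims1, Erc1 and Erc2, scaffolds of active zones in general, had log2 differences of 0.12, 0.18 and 0.15 in Otx2 KI and 0.09, 0.08 and 0.03 in Crx KO, all within the measurement error. A dimmer Rims1 probe read 111 in Otx2 KI, 207 in Crx KO and 104 in wild-type, which is 0.09 and 0.99. The second Erc2 probe gave -0.50 and -0.43, and a dimmer Erc1 probe -0.18 and -0.06, so the sign differed between the probes of both ERC genes.

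**Figure D3:**
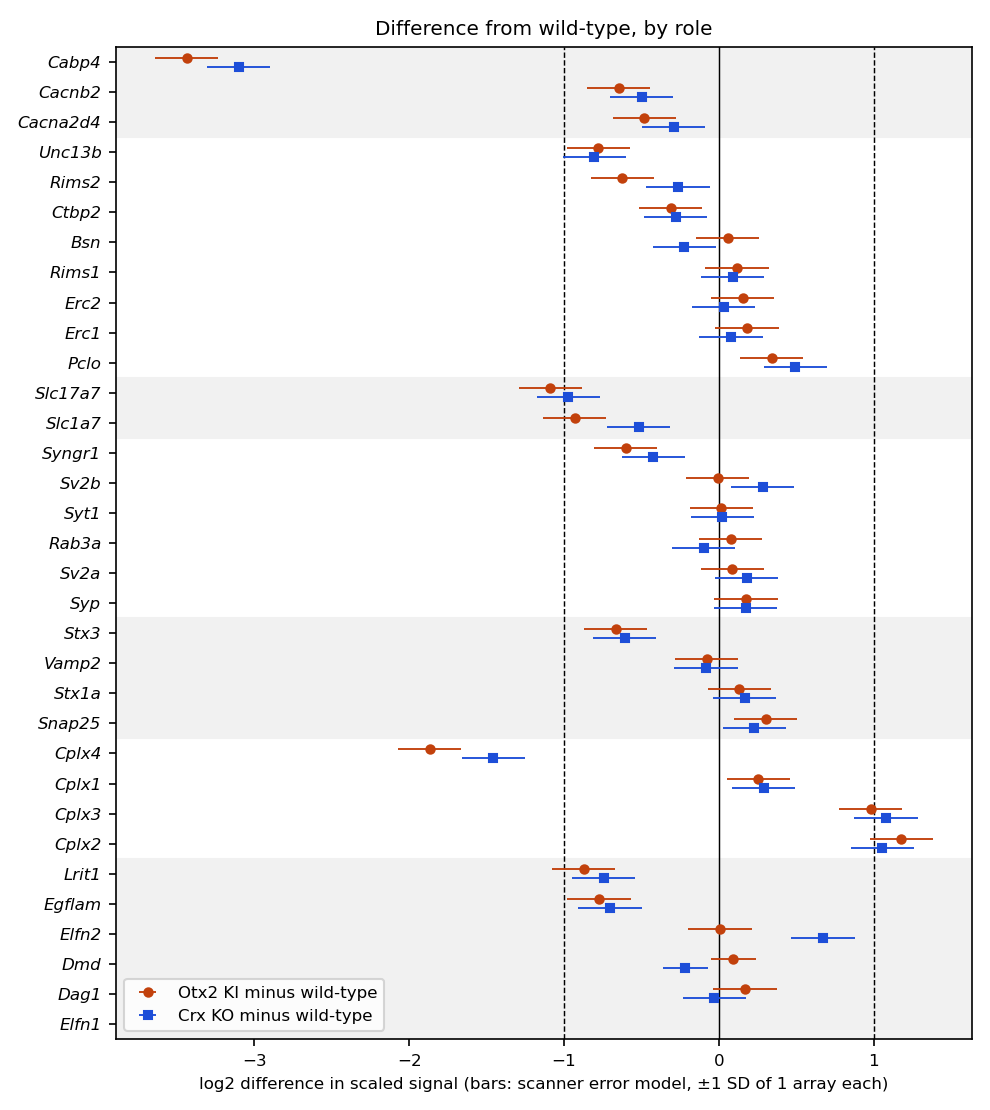
Log2 difference from wild-type of each measured gene in Otx2 KI (circles) and Crx KO (squares), by role; bars are 1 SD of the scanner error model and dashed lines mark 2-fold. Cabp4 and Cplx4 lie past the left line in both mutants, Cplx2 past the right line in both, and Elfn1 is not drawn because it was not well above background.

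General vesicle proteins differed little between arrays. Syt1, synaptotagmin, the calcium sensor of fast release, read 51503 in Otx2 KI, 51760 in Crx KO and 51001 in wild-type (log2 0.01 and 0.02). Syp, synaptophysin, an abundant membrane protein of vesicles, read 34326, 34244 and 30404 (log2 0.18 and 0.17). Rab3a, a GTPase of the vesicle surface, read 49624, 43972 and 47109 (log2 0.08 and -0.10). The readings on the 3 arrays differed by less than the measurement error for each of these genes. Sv2a and Sv2b, transporter-like vesicle proteins, stood at 0.09 and -0.01 in Otx2 KI and at 0.18 and 0.28 in Crx KO. Syngr1, synaptogyrin, was the exception, at 2291 in Otx2 KI, 2592 in Crx KO and 3476 in wild-type (log2 -0.60 and -0.42), and its other probe gave -0.81 and -0.95. Of the 6 vesicle genes it alone passed 1.5-fold, in Otx2 KI.

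The SNARE proteins that fuse vesicles with the membrane were split by isoform. Stx3 encodes the syntaxin of ribbon terminals, where it takes the place of the syntaxin of conventional synapses, Stx1a. Stx3 read 8804 in Otx2 KI, 9173 in Crx KO and 13975 in wild-type, or log2 -0.67 and -0.61. A further Stx3 probe was printed at 10 spots and gave 628 ± 19.1 in Otx2 KI (SD, 10 spots), 618 ± 20.6 in Crx KO (9 spots after 1 outlier) and 1043 ± 37.5 in wild-type (9 spots). The highest spot was 653 in Otx2 KI and 649 in Crx KO, and the lowest in wild-type was 982. These are spots on 1 array and not samples. Their SD was only 0.044 to 0.052 on the log2 scale, so small differences between arrays would also part them. Whether the spots of other probes part likewise was not examined. Stx1a read 715, 733 and 654 in Otx2 KI, Crx KO and wild-type (log2 0.13 and 0.16). The partner SNAREs shared by both kinds of synapse lay close to wild-type: Snap25 at 0.30 and 0.23 and Vamp2 at -0.08 in each mutant.

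The complexins, small proteins that clamp and promote SNARE fusion, differed in opposite directions. Cplx3 and Cplx4 are the complexins of retinal ribbon synapses, and Cplx1 and Cplx2 are best known from conventional ones. Cplx4 read 507 in Otx2 KI, 673 in Crx KO and 1849 in wild-type, 3.65-fold and 2.75-fold lower (log2 -1.87 and -1.46). Cplx3 read 14545 in Otx2 KI, 15592 in Crx KO and 7384 in wild-type, 1.97-fold and 2.11-fold higher (log2 0.98 and 1.08). The pair of ribbon complexins thus differed from wild-type in opposite directions in each mutant. In Otx2 KI Cplx3 was past 2-fold only with the arrays scaled on their median spot (log2 1.03), and in Crx KO it was within 2-fold when centred on inner retina markers (log2 0.98).

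Cplx2 was the clearest case of probes that disagreed. Each gene is represented by the probe whose log2 signals average highest, and on that probe Cplx2 read 52031 in Otx2 KI, 47726 in Crx KO and 22998 in wild-type (log2 1.18 and 1.05). Its other 3 probes gave 1.39, 0.51 and 0.15 in Otx2 KI and 1.28, 0.45 and 0.15 in Crx KO. The widest of these came from a probe that read 53879 in Otx2 KI, 49984 in Crx KO and 20590 in wild-type. All 4 probes were above wild-type in both mutants, by amounts between log2 0.15 and 1.39, and with the probes averaged Cplx2 was within 2-fold (log2 0.81 and 0.73). Which transcript forms the probes read was not examined. Cplx1 read 6180 in Otx2 KI, 6323 in Crx KO and 5181 in wild-type (log2 0.25 and 0.29).

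**Figure D4:**
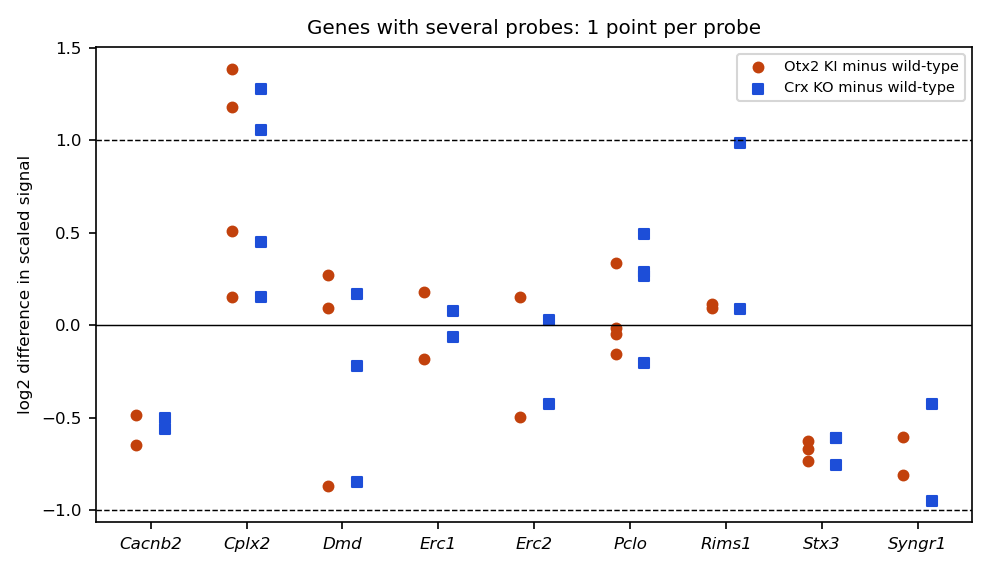
Log2 difference from wild-type of each probe, for the 9 genes with several probes well above background, in Otx2 KI (circles) and Crx KO (squares). The 4 Cplx2 probes spread from 0.15 to 1.39, the 3 Dmd probes from -0.87 to 0.27, and the 3 Stx3 probes lie together below 0.

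Of the 5 adhesion and matrix genes measured, Lrit1 and Egflam were at least 1.5-fold lower in both mutants, and Dag1, Dmd and Elfn2 were not. Lrit1, a leucine-rich repeat protein of the photoreceptor terminal, read 17208 in Otx2 KI, 18811 in Crx KO and 31502 in wild-type, at 54.6% and 59.7% of wild-type (log2 -0.87 and -0.74). Egflam encodes pikachurin, a matrix protein of the ribbon synapse that binds dystroglycan and aligns the bipolar cell tips. It read 105, 110 and 179 in Otx2 KI, Crx KO and wild-type (log2 -0.77 and -0.70). Dag1, which encodes dystroglycan itself, read 1643, 1431 and 1462 (log2 0.17 and -0.03), so the ligand and its receptor differed.

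Dystrophin and the ELFN proteins gave mixed readings. Dmd, dystrophin, which links dystroglycan to the cytoskeleton, stood at 0.09 and -0.22 on its brightest probe, at 0.27 and 0.17 on another, and at -0.87 and -0.85 on the probe that read 306 in Otx2 KI, 310 in Crx KO and 558 in wild-type. The Dmd locus makes several transcripts from separate promoters, one of them retinal, and which of them each probe reads was not examined. Elfn2, a photoreceptor adhesion protein that contacts bipolar glutamate receptors, read 214 in Otx2 KI, 339 in Crx KO and 213 in wild-type. Only the Crx KO array was apart, by log2 0.67 from wild-type, while Otx2 KI lay at 0.01.

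Set directly against each other, the mutants were close, with shares past each size near those of all genes. In Otx2 KI minus Crx KO 0 of the 32 genes differed by 2-fold or more, where 0.645% of 15806 genes were lower and 0.677% higher, 1.32% either way. At 1.5-fold 1 gene (3.12%), Elfn2, was lower in Otx2 KI (log2 -0.67), against 2.31% of all genes, and 0 were higher, against 2.44%. That is 1 either way, beside 4.75%. For 24 of the 32 the difference was within the measurement error, as it was for 73.7% of all genes. The next widest differences were Slc1a7 and Cplx4 at log2 -0.41 each, Rims2 at -0.36 and Cabp4 at -0.34, all lower in Otx2 KI. Dmd was higher in Otx2 KI at 0.31 on its brightest probe, with 0.11 and -0.02 on the others. Probes that do not represent their gene could lie farther out. A dimmer Rims1 probe gave -0.89 and a dimmer Pclo probe -0.44, against 0.03 and -0.15 on the brightest probes of these genes. Below 0 lay 20 of the 32 (62.5%), where 40.3% of all genes did. The median was -0.047, against 0.038 over all genes. With the arrays scaled on their median spot it was 0.010, against 0.095 over all genes.

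Relatives from the same gene families lay closer to wild-type in most cases. Cabp1 and Cabp5, calcium-binding relatives of Cabp4, stood at 0.48 and -0.35 in Otx2 KI and 0.33 and -0.05 in Crx KO, against -3.44 and -3.10 for Cabp4. Slc17a6 and Slc17a8, the other vesicular glutamate transporters, lay at 0.05 and -0.02 in Otx2 KI and 0.17 and 0.04 in Crx KO. The relatives of Unc13b were likewise near wild-type, with Unc13a at -0.03 and -0.14 and Unc13c at -0.07 and 0.22 in Otx2 KI and Crx KO. The beta subunits Cacnb1, Cacnb3 and Cacnb4 lay between 0.12 and 0.22 in both mutants, and Cacna2d1, Cacna2d2 and Cacna2d3 between -0.14 and 0.27. Stx2, a relative of Stx3, lay at 0.21 in Otx2 KI and 0.10 in Crx KO, and Syngr2 and Syngr3 between -0.37 and -0.11. The LRIT proteins did not follow this: Lrit2 read 1135 in Otx2 KI, 1211 in Crx KO and 2201 in wild-type (log2 -0.95 and -0.86), lower like Lrit1. Lrit3, a dim gene at 44.9, 95.4 and 114, was farther below wild-type than Lrit1 in Otx2 KI (log2 -1.34). In Crx KO it was nearer to wild-type than Lrit1 (-0.25). The relatives were compared after the values were seen, and a difference within a family was not tested.

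**Figure D5:**
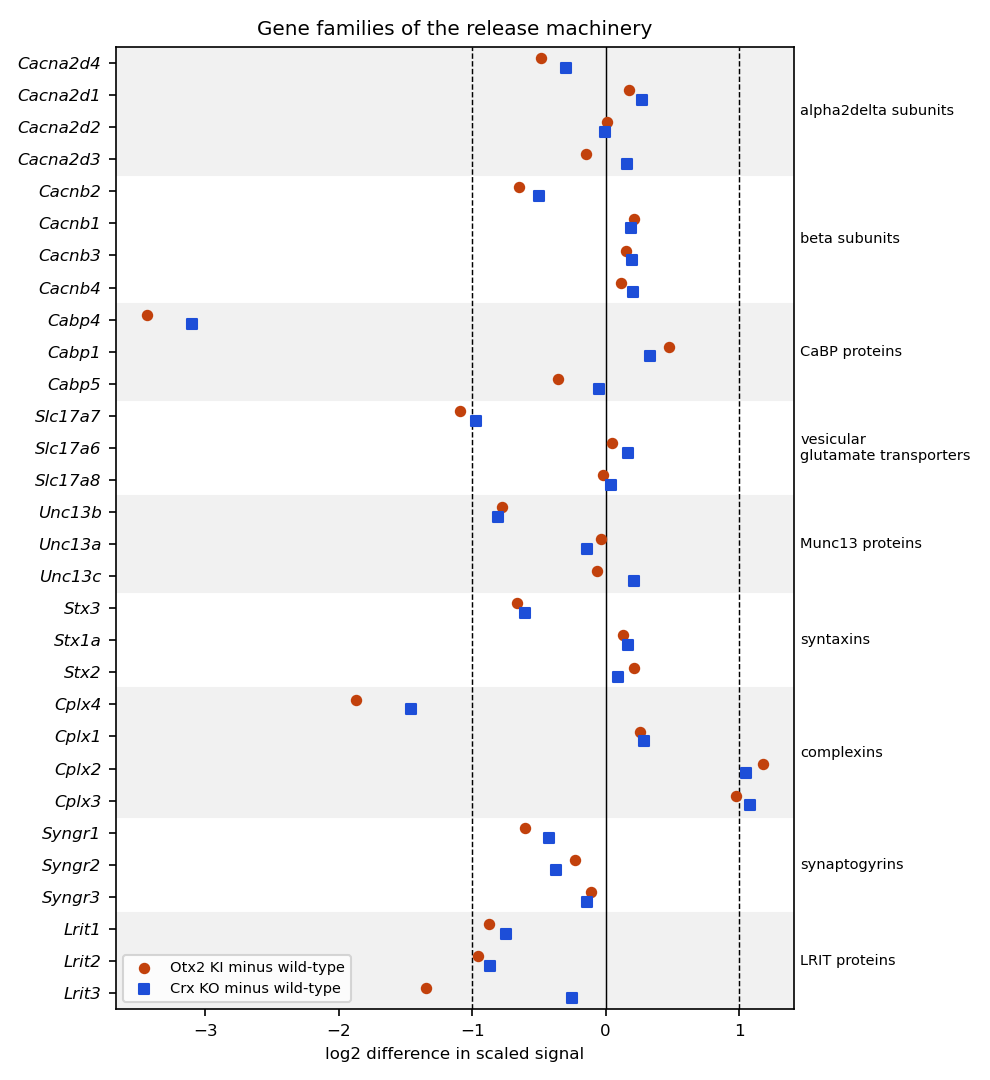
Log2 difference from wild-type in Otx2 KI (circles) and Crx KO (squares) for 9 families, each headed by a gene of the synaptic set and followed by its relatives; dashed lines mark 2-fold. Cabp4, Slc17a7, Unc13b, Stx3 and Cplx4 lie to the left of the relatives below them, while Lrit2 lies beside Lrit1. Lrit3 lies left of Lrit1 in Otx2 KI and right of it in Crx KO.

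A wider list of 61 other presynaptic genes lay near the background of all genes. Of the 58 measured in Otx2 KI 1 was at least 2-fold lower and 0 were at least 2-fold higher (median log2 difference 0.045), and of the 59 measured in Crx KO 1 was lower and 1 higher, with a median of 0.045. Over all genes 2.53% were lower and 1.35% higher in Otx2 KI (median 0.030), and 3.43% lower and 1.95% higher in Crx KO (median -0.0074). The lower one was Mpp4, a membrane scaffold of the photoreceptor terminal. It read 1438 in Otx2 KI, 1980 in Crx KO and 10807 in wild-type, 7.52-fold and 5.46-fold lower, and its second probe gave log2 -2.89 and -2.41 against -2.91 and -2.45. The higher one was Sv2c, a vesicle protein related to Sv2a, at 277 in Crx KO and 18.5 in wild-type (log2 3.90), with 13.3 and not well above background in Otx2 KI. The second, dim Sv2c probe gave log2 0.53, so the larger value rests on 1 probe. Cacna1f, the pore of the photoreceptor L-type channel, was named after its value was seen. It read 2314 in Otx2 KI, 2867 in Crx KO and 4290 in wild-type (log2 -0.89 and -0.58).

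Among 28 other genes at the contact between photoreceptors and bipolar cells, 3 of 27 measured were at least 2-fold lower in Otx2 KI and 1 in Crx KO, and 0 were at least 2-fold higher in either. Of all genes 2.53% were that much lower in Otx2 KI and 3.43% in Crx KO; the 1 of 27 in Crx KO is near that share. Rgs9bp, which anchors a signal-terminating complex in photoreceptors, read 1338 in Otx2 KI, 1764 in Crx KO and 4311 in wild-type (log2 -1.69 and -1.29, with -0.81 and -0.74 on a dimmer probe). Gnb5, a G protein beta subunit of that complex and of its bipolar counterpart, read 7374, 9609 and 18931 (log2 -1.36 and -0.98). Lrit3, needed for transmission to ON-bipolar cells, read 44.9, 95.4 and 114, so it was lower in Otx2 KI (log2 -1.34) and within 1.5-fold of wild-type in Crx KO (-0.25). The receptor and channel genes of the bipolar side lay close to wild-type in both mutants, with Grm6 at -0.18 and -0.01, Trpm1 at -0.18 and -0.04 and Gpr179 at -0.03 and 0.12; they were named after their values were seen.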

How the data were processed

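Gene expression was measured in mouse retina on 3 one-colour arrays, 1 per genotype as the labels give it. The deposited scanner files hold intensity values per spot from Agilent Feature Extraction 12.0.3.1, on an array design of build mm9, per the file headers. The processed signal, an intensity already background-subtracted by that software, was used. Outlier spots and control spots were left out, spots of a probe were averaged, and log2 values were taken relative to each array's 75th percentile (564, 570 and 574 in Otx2 KI, Crx KO and wild-type). The authors' deposited value table equals that signal times 1 constant per array (2.54, 2.61 and 2.49, within 2% for 100% of spots); the basis of those constants is unknown here, and the column medians are 126, 136 and 130.

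Probes were named by matching accessions, without versions, to RefSeq genes of GRCm38.p6, which named 28331 of 55681 probes (50.9%). A gene took the probe whose log2 signals averaged highest over the arrays and counted as measured when well above background on both arrays. All 33 members are named; of the wider lists, those past 2-fold by rule, and any other is said to be chosen after its value was seen. Some genes of the wider lists are not reported here by name. With 1 array per genotype there was no test; 2-fold was the size called, and 1.5-fold is given beside it. Precision is limited by the number of arrays. No member spot was saturated. Members and lists were chosen with earlier results of these data known. Tools were pandas 2.3.3 and numpy 2.4.6 under Python 3.11.15, and alternatives used limma 3.58.1 for normexp. The 2-fold call was tried on the processed wild-type signals with simulated shifts larger than 2-fold. The simulated noise was that of the scanner error model alone. Calls near 2-fold, and variation between mice or between probes, were therefore not checked. The steps before the call were not tested in this way.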

Additional observations from a re-analysis of the deposited data

How the results depend on the processing

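No paired analysis was possible because there is 1 array per genotype, and for the same reason no replicate could be left out. Over 8 alternatives, 768 values of single genes were set beside the main setting, and 6 crossed the 2-fold line. A change of sign was counted only for genes called at 2-fold, 4 in Otx2 KI, 4 in Crx KO and 0 between the mutants. For these there were 0 changes of sign. Leaving out the filter on dim probes repeats the main values by construction, and the authors' value table shifts all genes of an array alike. Of the 768, 14 moved by more than their error, 11 of them with probes averaged and 3 with normexp. In Otx2 KI against wild-type the members' median was 0.059 scaled on the median spot, -0.037 centred on inner retina markers and -0.043 with probes averaged. There the number higher was 2 scaled on the median spot, 0 with probes averaged and 0 without Cplx2; at 1.5-fold 11 were lower and 2 higher. In Crx KO against wild-type the median was -0.039 with quantile normalization, -0.036 in the authors' value table, -0.19 centred on inner retina markers and -0.15 with probes averaged. There the number higher was 0 centred on inner retina markers, 1 with probes averaged and 1 without Cplx2, and 7 were lower at 1.5-fold. In Otx2 KI against Crx KO the median was -0.10 with quantile normalization and in the value table, 0.010 scaled on the median spot and 0.0052 centred on inner retina markers, and 1 was lower at 1.5-fold. Causes were not tested, but probe averaging and leaving out Cplx2 act on Cplx2 by construction.

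Without a filter on dim probes Elfn1, at background on all arrays, added 1 gene to those lower in each mutant. Over all genes, the counts lower and higher were 400 and 213 in Otx2 KI, 550 and 313 in Crx KO, and 102 and 107 between the mutants. With normexp they were 282 and 130, 328 and 182, and 50 and 35; without the filter 906 and 498, 1077 and 788, and 579 and 394. At 1.5-fold they were 1004 and 578, 1324 and 805, and 365 and 386. Members' counts at 2-fold were those of the main setting with normexp. The planned normexp on spot means was not run, and spot medians were used, a choice made after seeing the data, as was leaving out Cplx2.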

Other observations

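Among the listed genes, 3 that lie within 20 measured genes of Crx on the same chromosome in the gene order of GRCm38.p6 were picked after their values were seen. Cabp5, a calcium-binding protein of bipolar cells, is 3 measured genes away and read 9943 in Otx2 KI, 12283 in Crx KO and 12703 in wild-type. Napa, a cofactor that takes SNARE complexes apart, is 6 away and stood at log2 -0.10 in Otx2 KI and -0.22 in Crx KO against wild-type. Slc1a5, a neutral amino acid transporter, is 20 away and stood at 0.32 and 0.01.

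Elsewhere in these lists, the plasma membrane SNARE Snap23, which is the broadly expressed relative of Snap25, was higher in both mutants, at 9196 in Otx2 KI, 8882 in Crx KO and 5741 in wild-type (log2 0.68 and 0.63). The adhesion molecule Cadm3 read 5763, 5340 and 3598 on the same arrays (log2 0.68 and 0.57). Both were picked after their values were seen, and neither reached 2-fold. Each has 2 probes, of which only the brighter was examined. At 1.5-fold in Otx2 KI, 3 of the 58 presynaptic genes measured were lower and 1 higher, and of the 27 contact genes 5 and 1. Of all genes 6.35% were lower and 3.66% higher. In Crx KO 1 of 59 was lower and 2 higher, and 3 and 1 of 27, beside 8.25% and 5.02% of all genes.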
